A study of Mus musculus with 22 samples.

Results

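The dual-specificity MAP kinase phosphatases are enzymes that remove phosphate from both the threonine and the tyrosine of an active MAP kinase. The 10 mouse genes of this class were taken by name (Dusp1, Dusp2, Dusp4, Dusp5, Dusp6, Dusp7, Dusp8, Dusp9, Dusp10 and Dusp16) and read out of RNA sequencing count tables of 53342 genes, and all 10 were found. The tables cover 22 libraries of a study that asked how mRNA levels differ with genotype in mice with pancreatic cancer, with or without microRNA-21. The cancer cell lines comprised 5 labelled miR21 KO and 5 labelled WT. The snap-frozen whole tumors comprised 8 labelled miR21 KO and 4 labelled WT. All animals were of the Bl6 strain with titles that begin with KPC, and neither animals nor cells had been treated. A recombined p53 allele, with loss of heterozygosity, is among the alleles recorded for the lines, KO and WT alike. The labels used here give neither the exact alleles, nor the Cre driver, nor age or sex. Each line was grown from 1 dissociated tumor of a symptomatic animal, passaged at least 8 times to lose fibroblasts, and used at passage 10 to 14 in 5% serum. The titles tie a line and a tumor to the same animal in 5 cases, and within the lines and within the tumors each library came from its own animal.

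Growth factors signal through the kinases RAF, MEK and ERK, while stress and cytokines act through the related MAP kinases JNK and p38. The phosphatases are the brakes of these cascades, and many are transcribed when the kinase they restrain is active, which makes their mRNA a sign of feedback. By textbook grouping, Dusp1, Dusp2, Dusp4 and Dusp5 encode inducible nuclear enzymes, Dusp6, Dusp7 and Dusp9 encode cytoplasmic enzymes that prefer ERK, and Dusp8, Dusp10 and Dusp16 encode enzymes that prefer JNK and p38. MicroRNA-21 lowers mRNAs whose 3′ UTR pairs with its seed, the stretch from base 2 to base 8.

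The sequences below show which of the 10 mRNAs could pair with that seed. The mature microRNA (RefSeq, build GRCm38.p6, chromosome 11, 86584120 to 86584141, minus strand, 22 bases) is printed with its seed in capitals. The 3′ UTR windows of 24 bases, from GENCODE vM21 on mm10, carry the matched bases in capitals.
mmu-miR-21a-5p: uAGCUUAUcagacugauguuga
Dusp8, 8mer, chr7:142080191-142080214, minus strand: tccctgagaaaATAAGCTAttgtt
Dusp8, 7mer-A1, chr7:142081713-142081736, minus strand: tttttatttattTAAGCTAgtgat
Dusp16, 7mer-m8, chr6:134716182-134716205, minus strand: ggtctgtacagATAAGCTgtgtgt
The matches searched were read on the transcribed strand and were ATAAGCTA (8mer), ATAAGCT without the last A (7mer-m8) and TAAGCTA without the first A (7mer-A1). In Dusp8 the 8mer began at base 1657 and the 7mer-A1 at base 136 of a 3′ UTR of 2370 bases. In Dusp16 the single 7mer-m8 began at base 1690 of 2416, and a match of 6 bases alone, TAAGCT, began at base 478. Dusp10 held no more than a 6-base match, TAAGCT, in its 1113 bases, and none of these matches was found in the longest annotated 3′ UTRs of Dusp1, Dusp2, Dusp4, Dusp5, Dusp6, Dusp7 and Dusp9, which ran from 581 (Dusp2) to 1778 bases (Dusp7). Among 20879 genes with a searched 3′ UTR, 2.117% had an 8mer and 7.223% had an 8mer or a 7mer-m8. With the 7mer-A1 counted as well the share was 11.188%. A match is a stretch of letters and not a measured binding site.

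Library totals ran from 24547650 to 31118113 counts, and levels are given as CPM, the counts scaled to the library total and its TMM factor. A count of 0 in the smallest library allows up to 0.122 CPM when scaled to its total alone, without the TMM factor (3 counts, counting error only). The targeted gene, Mir21a, had 0 counts in all 22 libraries, WT included, so these mRNA libraries do not check the genotype labels. The lines carried summed epithelial markers of 7268 to 14439 CPM over 7 genes, lowest in WT line 3. T cell markers were almost absent from them (at most 0.0445 CPM, with 5 of 6 at 0 in each line group). Fibroblast markers in the lines summed to 2.2 to 14.6 CPM over 7 genes, highest in WT line 3, against 1215 to 8692 CPM in tumors. T and B cell markers stood apart in KO tumor 8 and WT tumor 2, and skeletal muscle markers in WT tumor 3 (1278 CPM over 6 genes, against at most 12.8 in KO tumors).

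Per kilobase of exon, Dusp6 had the highest mean of the class in each of the 4 groups, and Dusp2 was the lowest in both groups of lines. RPKM, which is CPM per kilobase of the union of annotated exons, allows levels to be compared between genes. Dusp6 reached 120.0 ± 16.6 RPKM in the KO lines and 89.1 ± 19.5 RPKM in the WT lines (SD, n = 5 each). Next came Dusp4, which encodes a nuclear phosphatase of ERK and JNK, at 42.4 ± 4.18 RPKM in KO lines and 43.5 ± 8.98 in WT lines, and Dusp5, a nuclear phosphatase for ERK, at 33.7 ± 10.5 and 42.0 ± 13.0. In lines of both genotypes the range of Dusp6 lay wholly above that of Dusp4, whereas Dusp4 and Dusp5 overlapped, and both lay wholly above the rest. Dusp7, Dusp16 and Dusp10 formed a middle level, with group means of 7.89 to 12.3 RPKM in lines and ranges that overlapped. Dusp8, Dusp9 and Dusp1 followed with means of 1.49 to 4.31 RPKM in lines. In tumors the neighbours in the order all overlapped: Dusp6 stood at 67.4 ± 21.4 RPKM in KO tumors (SD, n = 8) and 86.1 ± 38.4 in WT tumors (SD, n = 4), and Dusp5 at 25.9 ± 13.5 and 66.4 ± 37.9. Lengths matter most for Dusp16, whose union of exons is 7798 bases against 5104 in its longest transcript: its mean in KO lines is 11.5 RPKM on the first length and 17.5 on the second, and Dusp1 in KO tumors likewise goes from 12.8 to 18.3.

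**Figure D1:**
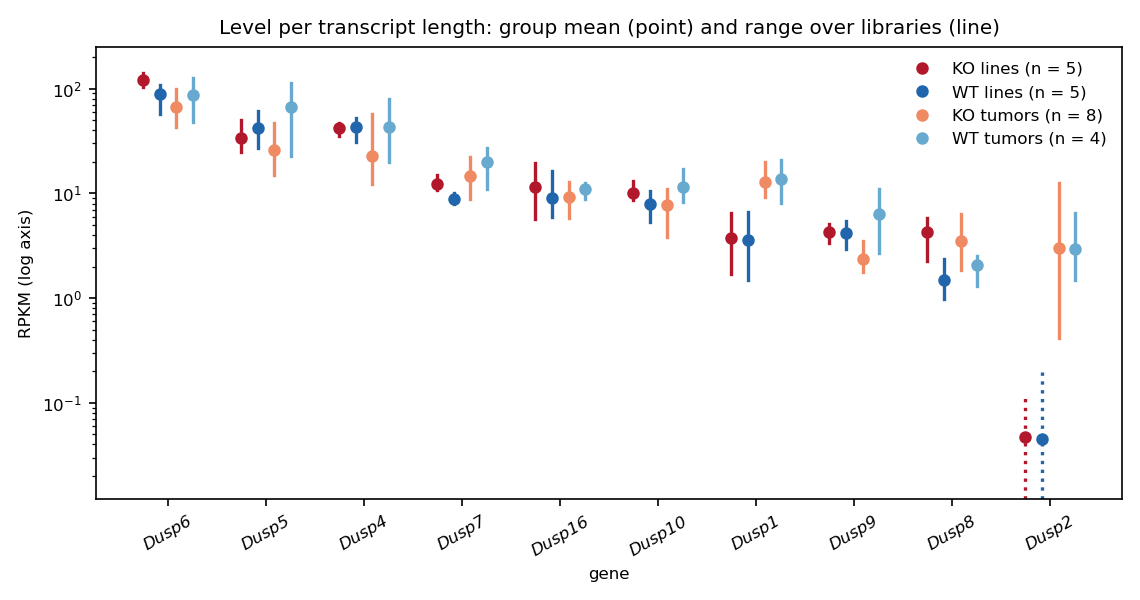
Level of each gene per kilobase of exon (RPKM, log axis) in KO lines, WT lines, KO tumors and WT tumors; points are group means and lines span the lowest to the highest library (dotted where the lowest is 0, which a log axis cannot show). Dusp6 has the highest mean in each group, and Dusp2 has means of 3.01 and 2.96 RPKM in tumors but 0.0471 and 0.0447 in lines.

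**Figure D2:**
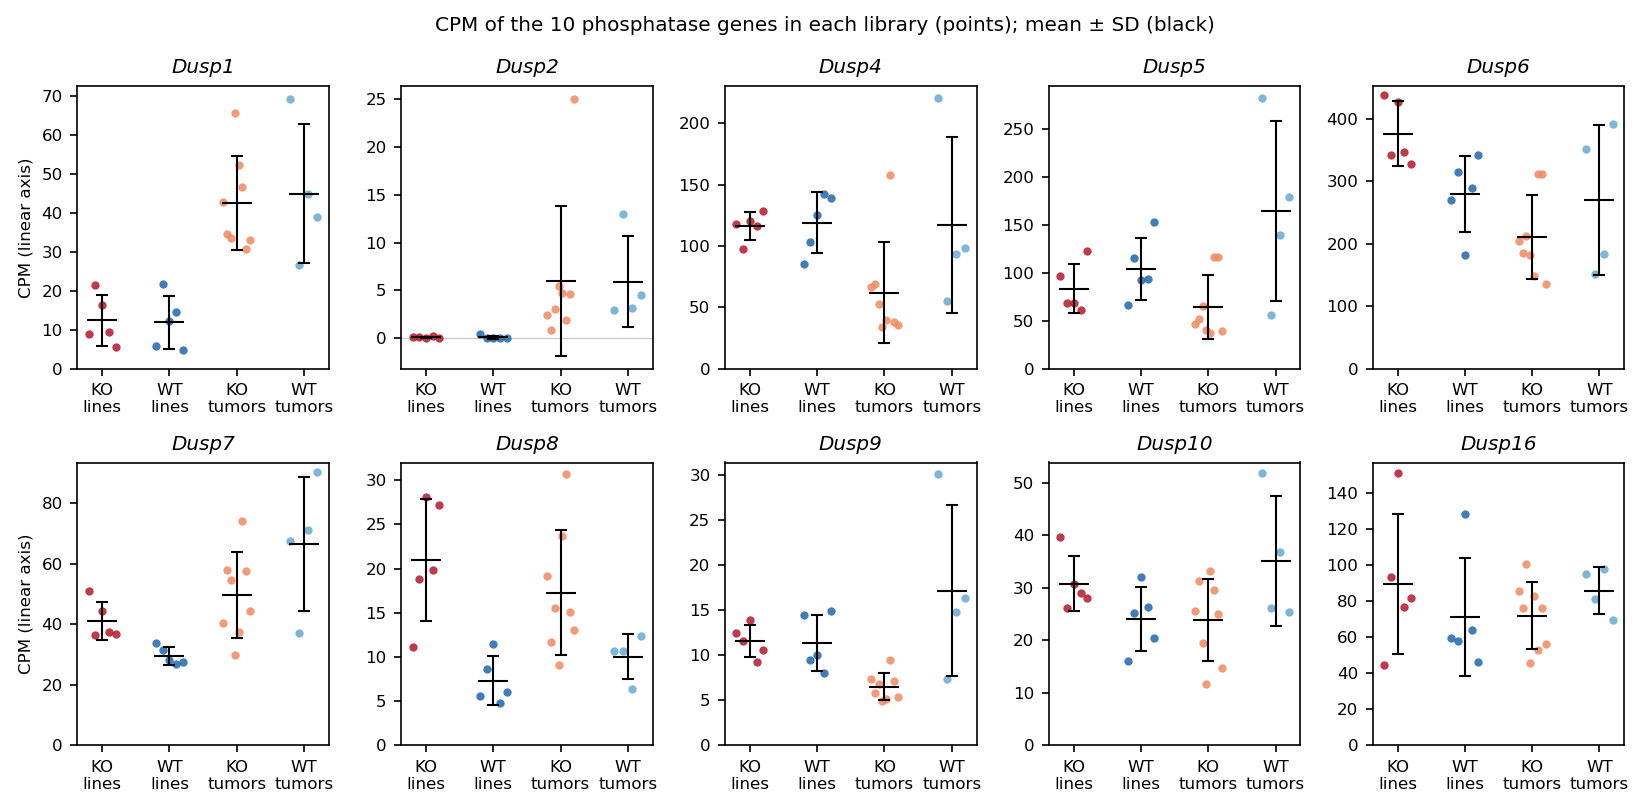
CPM of each of the 10 genes (linear axes, 1 panel a gene) in every library as points, with the group mean and SD in black. Dusp8 is the gene whose KO points sit above most WT points in lines and tumors alike, and Dusp1 and Dusp2 are the genes whose tumors all sit above all lines.

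In the lines, where cancer cells are seen without other cell types, no phosphatase passed the test between genotypes, and Dusp8 had the largest difference of the class. Dusp8 averaged 2.89 times as much in KO as in WT lines. Dusp7 was higher in each KO line than in any WT line, but by less, 1.40 times. The other members differed by at most 1.35 times in either direction.

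Dusp8, a phosphatase of JNK and p38 whose mRNA holds the 8mer printed above, measured 11.1, 18.8, 28.1, 19.8 and 27.2 CPM in the KO lines, in order of replicate number. The WT lines, in the same order, measured 5.56, 8.59, 11.5, 4.74 and 5.96 CPM. Of the 5 KO lines, 4 exceeded all WT lines, and KO line 1 was just under WT line 3, so the groups overlapped by that pair. On the log2 scale KO exceeded WT by 1.53 ± 0.31 (SE). By edgeR's quasi-likelihood test over 14020 genes the adjusted p was 0.545, and the gene ranked 10 by unadjusted p. DESeq2 called it, with a log2 fold change of 1.53 and an adjusted p of 0.00427, in a list of 46 genes (0.328% of those tested). Over its 16 alternatives the log2 fold change ran from 1.41 to 1.76 and the adjusted p from 0.00427 to 0.946. The 2 other members with preference for JNK and p38 differed less: Dusp10 averaged 30.7 ± 5.24 CPM in KO and 24.0 ± 6.05 in WT lines (SD, n = 5 each), a log2 fold change of 0.36 ± 0.20. Dusp16, with its single 7mer-m8, averaged 89.6 ± 39.0 and 71.1 ± 32.6 CPM, a log2 fold change of 0.33 ± 0.34. KO line 3 and WT line 3 were the highest for Dusp16 in their groups, at 151 and 128 CPM, so its spread within each genotype exceeded the difference between them.

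Among the cytoplasmic ERK phosphatases, Dusp7 measured 50.8, 36.5, 44.2, 37.4 and 36.8 CPM in KO lines against 33.6, 31.4, 28.3, 26.9 and 27.3 in WT lines. The lowest KO line was above the highest WT line, a separation that 0.742% of the genes tested had in this direction and 0.521% in the opposite one. The log2 fold change was 0.48 ± 0.13 (adjusted p = 0.713, edgeR). Dusp6, the ERK-specific enzyme best known as a readout of ERK activity, measured 437, 342, 427, 346 and 327 CPM in KO lines against 270.0, 315, 181, 288 and 342 in WT lines. All but KO line 5 lay above the WT lines, and the log2 fold change was 0.43 ± 0.17 (adjusted p = 0.713, edgeR). Dusp9 averaged 11.5 ± 1.79 and 11.4 ± 3.11 CPM, and its sign turned when single lines were left out.

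The inducible nuclear members showed no such order. Dusp4 averaged 116.0 ± 11.5 CPM in KO and 119.0 ± 24.6 in WT lines. Dusp5 averaged 83.4 ± 25.9 and 104.0 ± 32.3 CPM, the sole member of the 9 tested with a log2 fold change below -0.1 (-0.32 ± 0.24). Dusp1, an immediate early gene, averaged 12.3 ± 6.47 CPM in KO and 11.8 ± 6.91 in WT lines, and its SD within each genotype exceeded the difference of the means. The bounds of Dusp1 in the later gene version of vM21 overlap Ergic1, a gene of the opposite strand with counts at 733% of those of Dusp1, and the strand setting of the counting is not given in the sources used here. Dusp2, an enzyme of blood cells, had 24 counts in all 10 lines together, 0 in 5 of them, and was left out of this test by the low-count filter.

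Over the 9 members tested in lines, 0 passed by edgeR, 0 by limma-voom and 1 (Dusp8) by DESeq2, and 3 had an unadjusted p under 0.05 (Dusp6, Dusp7 and Dusp8), which 6.99% of all genes tested had. The background of calls was 0.0143%, 2 genes of 14020. The log2 fold change was positive in 7 of 9, with a median of 0.33 against -0.03 over all genes. Those 9 are the members that passed the filter on low counts.

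**Figure D3:**
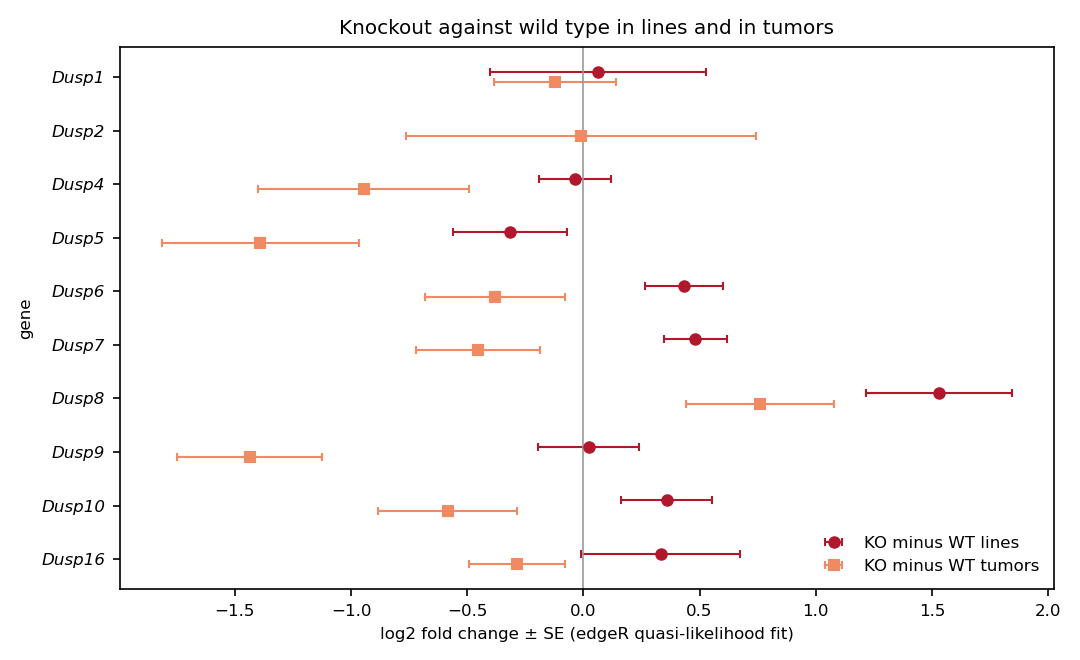
Log2 fold change of KO against WT (± SE, edgeR) for each gene in lines (circles, n = 5 and 5) and in tumors (squares, n = 8 and 4); Dusp2 was not tested in lines. Dusp8 lies right of 0 in both, while Dusp5, Dusp9 and Dusp4 lie furthest left in tumors; no value passed an adjusted p of 0.05 by this test.

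In the tumors the members again did not pass the test between genotypes, and the largest differences lay in other genes than in the lines. Dusp9 and Dusp5, which encode a cytoplasmic and a nuclear ERK phosphatase, averaged 0.378 and 0.390 times the WT level in KO tumors, and Dusp4 0.529 times. Dusp8 alone had a positive log2 fold change, with a KO mean of 1.72 times that of WT. In whole tumors, fewer cells of a type and less RNA per cell cannot be told apart.

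Dusp9 had a lowest, median and highest level of 4.88, 6.30 and 9.49 CPM in the 8 KO tumors. The 4 WT tumors measured 30.1, 7.30, 14.8 and 16.4 CPM. Of the KO tumors, 6 lay under all WT tumors, and WT tumor 2 lay within the KO range. The log2 fold change was -1.44 ± 0.31 (adjusted p = 0.118, edgeR, over 18125 genes). It passed by DESeq2 (adjusted p = 0.00282), in a fit of all 22 libraries together (adjusted p = 0.0333, with 0.214% of genes called) and without WT tumor 2 (log2 fold change -1.70, adjusted p = 0.0405, edgeR, with 0.308% called). Without WT tumor 1, which is the highest, the log2 fold change was -1.01 with an adjusted p of 0.255.

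Dusp5 had 36.6, 49.3 and 116 CPM as lowest, median and highest of the KO tumors, against 282, 56.2, 139.7 and 178 in WT tumors 1 to 4. The groups overlapped, with 5 of 8 KO tumors under the lowest WT tumor. Its log2 fold change was -1.39 ± 0.42 (adjusted p = 0.167, edgeR), and DESeq2 gave an adjusted p of 0.0425. Dusp4 had 33.9, 46.5 and 158 CPM in KO tumors and 220.4, 54.7, 93.7 and 98.2 in WT tumors, a log2 fold change of -0.95 ± 0.45 (adjusted p = 0.316, edgeR). Its highest tumors were WT tumor 1 and KO tumor 6, against 33.9 to 98.2 CPM in the other 10. Its log2 fold change was -0.43 (adjusted p = 0.731) without WT tumor 1 and -1.32 (adjusted p = 0.111) without KO tumor 6, both by edgeR.

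Dusp8 measured 9.07, 15.3 and 30.7 CPM as lowest, median and highest of the KO tumors, against 10.7, 10.7, 6.38 and 12.3 in WT tumors. Of the 8 KO tumors, 6 exceeded every WT tumor, and KO tumors 2 and 4 did not. The log2 fold change was 0.76 ± 0.32 (adjusted p = 0.260, edgeR), and it was positive, between 0.58 and 0.88, over 22 alternatives, none of which called it. Without WT tumor 3, its lowest tumor and the one with high muscle markers, it was 0.61 (adjusted p = 0.477, edgeR). Unlike Dusp8, the other phosphatases of JNK and p38 had negative values: Dusp10 averaged 23.8 ± 7.82 CPM in KO and 35.0 ± 12.4 in WT tumors, a log2 fold change of -0.58 ± 0.30, and Dusp16 71.9 ± 18.7 and 85.7 ± 13.2 CPM, a log2 fold change of -0.28 ± 0.21.

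Dusp6 averaged 211 ± 67.2 CPM in KO and 270 ± 120 in WT tumors, and Dusp7 49.5 ± 14.2 and 66.5 ± 22.1. Their log2 fold changes of -0.38 ± 0.30 and -0.45 ± 0.27 were opposite in sign to those in lines. Dusp1 averaged 42.4 ± 12.1 and 44.9 ± 18.0 CPM. Dusp2 averaged 6.03 ± 7.84 and 5.92 ± 4.76 CPM, with most of each mean from 1 tumor.

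Over the 10 members in tumors, 0 passed by edgeR, 0 by limma-voom and 2 (Dusp5 and Dusp9) by DESeq2, and 3 had an unadjusted p under 0.05 (Dusp5, Dusp8 and Dusp9). The shares over all 18125 genes were 0.011% by edgeR, 4.87% by DESeq2 and 16.7% at the unadjusted p. The log2 fold change was negative in 9 of 10, with a median of -0.42 against 0.01 over all genes. In no member did the groups separate fully, which 1.12% of genes did with KO above and 0.789% with KO below.

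Levels of cell type markers also varied over the same tumors, and no marker passed between genotypes by edgeR or limma-voom. The summed level of 7 epithelial markers ran from 3843 to 8031 CPM in KO tumors and from 6034 to 13850.4 in WT tumors, with 7 of 7 markers lower in KO (median log2 fold change -0.62, smallest adjusted p = 0.136 by edgeR). The 7 fibroblast markers were all higher in KO (median 1.29, smallest adjusted p = 0.148), with sums of 1215 to 8692 and 1775 to 5263 CPM. DESeq2 called 3 of the epithelial, 2 of the fibroblast and 1 of the acinar markers. The 5 islet markers were also all higher in KO (median 4.29, smallest adjusted p = 0.234, edgeR), with sums of 0.487 to 319.5 CPM against 0.07 to 14.1 in WT tumors. The 5 skeletal muscle markers tested were all lower in KO (median -5.61, smallest adjusted p = 0.0685, edgeR). The sums were 1.46 to 12.8 CPM in KO tumors and 37.6, 9.32, 1278 and 6.98 CPM in WT tumors 1 to 4. Most of the WT level therefore came from WT tumor 3. With the epithelial markers as a covariate, the log2 fold change was -1.21 for Dusp9, -1.15 for Dusp5, -1.40 for Dusp4 and 0.80 for Dusp8 (adjusted p = 0.692, 0.718, 0.692 and 0.698, edgeR). With the fibroblast markers it was -1.21, -1.04, -0.52 and 0.84, and with 8 acinar markers, of which 7 were higher in KO (median 1.86, smallest adjusted p = 0.197), it was -1.20, -1.12, -0.57 and 0.80. The values of 5 members shrank by more than 1.5 times in some of these fits. Dusp4 went from -0.95 to -0.57 (acinar) and -0.52 (fibroblast), and Dusp16 from -0.28 to -0.028 (epithelial), -0.11 (acinar) and -0.17 (fibroblast). Dusp6 went from -0.38 to -0.19 (epithelial) and -0.21 (fibroblast). Dusp10 went from -0.58 to -0.21 (acinar) and -0.33 (fibroblast), and Dusp7 from -0.45 to -0.26 (fibroblast). The value of Dusp2 went from -0.010 to -0.32, -1.13 and -1.09 with the epithelial, acinar and fibroblast covariate. None of these fits called a member by edgeR. Any further part of the markers in the differences was not tested.

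The difference between the 2 genotype effects was tested directly, tumors minus lines, over 18662 genes. No gene passed by edgeR (0.0%), and DESeq2 called 67 (0.359%), no member of the class among them. The interaction was negative in 9 of 10 members, with a median of -0.83 against 0.04 over all genes. This was not particular to the class. The immediate early list was negative in 12 of 12 (median -0.64) and the epithelial markers in 7 of 7 (median -0.73). The atypical dual-specificity genes, described below, were positive in 8 of 13 (median 0.25). The interaction was -1.42 ± 0.40 for Dusp9, -0.91 ± 0.37 for Dusp10, -0.91 ± 0.30 for Dusp7 and -0.78 ± 0.36 for Dusp6 (adjusted p = 0.432, 0.515, 0.446 and 0.590). These 4 had an unadjusted p under 0.05, a level that 8.25% of genes reached. For Dusp8 it was -0.75 ± 0.45 (adjusted p = 0.692), so a difference between its effects in lines and tumors was not detected at this spread.

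Between tumors and lines the class split. Dusp1, Dusp2 and Dusp7 were higher in tumors, Dusp6 was lower by a margin that depended on the fit, and the remaining 6 did not pass the test over both genotypes. The comparison is one of materials: tumors hold fibroblasts, blood vessels and immune cells that lines lack, and were frozen rather than cultured. Of all 18662 genes, 65.5% were called, 38.5% higher and 27.0% lower, so the members' 3 higher and 1 lower of 10 are not more than the background.

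Dusp1 measured 26.7, 40.7 and 69.3 CPM as lowest, median and highest of the 12 tumors against 4.88, 10.7 and 21.8 in the 10 lines. The materials did not overlap, which held for 12.2% of genes in this direction. The log2 difference was 1.85 ± 0.28 (adjusted p = 8.79e-06, edgeR), close to 1.78 in KO and 1.96 in WT libraries taken alone, and it was positive in 5 of 5 animals with both. Of 12 other immediate early genes on a list, 6 were called higher in tumors, against 38.5% of all genes, and 0 lower. The log2 difference was positive in 9 of them and negative in 3. The 3 with the smallest p were Egr2 (log2 difference 4.19 ± 0.33), Jun (1.62 ± 0.18) and Fos (1.61 ± 0.26), transcription factors induced within minutes of a stimulus. Egr1, also on the list, ran from 29.2 to 255.7 CPM in lines and from 27.0 to 108.8 CPM in tumors.

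Dusp2 measured 0.835, 3.85 and 25.0 CPM as lowest, median and highest tumor, and at most 0.408 CPM in a line, where 7 of 10 libraries had 3 counts or fewer. Its log2 difference of 5.95 ± 0.84 (adjusted p = 4.28e-06, edgeR) rests on those few counts in the lines. With 1 library left out it ran from 5.46 to 7.31, the highest without WT line 1, the line with 0.408 CPM. The highest Dusp2 was in KO tumor 8 (25.0 CPM) and WT tumor 2 (13.0 CPM). These are the tumors with the highest T cell markers, 149 and 54.1 CPM over 6 genes, and the highest B cell markers, 313 and 157 CPM over 3 genes. In the other 10 tumors Dusp2 ran from 0.835 to 5.50 CPM, T cell markers from 0.433 to 21.51 and B cell markers from 0.133 to 48.5. Without the pair of tumors, a choice made after seeing the data, the log2 difference from lines was 5.11 ± 0.71 (adjusted p = 6.85e-06, edgeR). The genes most like Dusp2 over the 12 tumors, among 12091 with a mean of at least 5 CPM, were Vav1 (r = 0.974), Rac2 (r = 0.972) and Coro1a (r = 0.972), which are expressed in blood cells, and these values share the same pair of tumors. Macrophage markers (5 genes) were also highest in KO tumor 8 (1150 CPM), followed by KO tumor 4 (1071), WT tumor 4 (639) and WT tumor 2 (636). Fibroblast and islet markers were highest in KO tumor 8 too, at 8692 and 319.5 CPM. Which cells carried the Dusp2 mRNA was not tested.

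**Figure D4:**
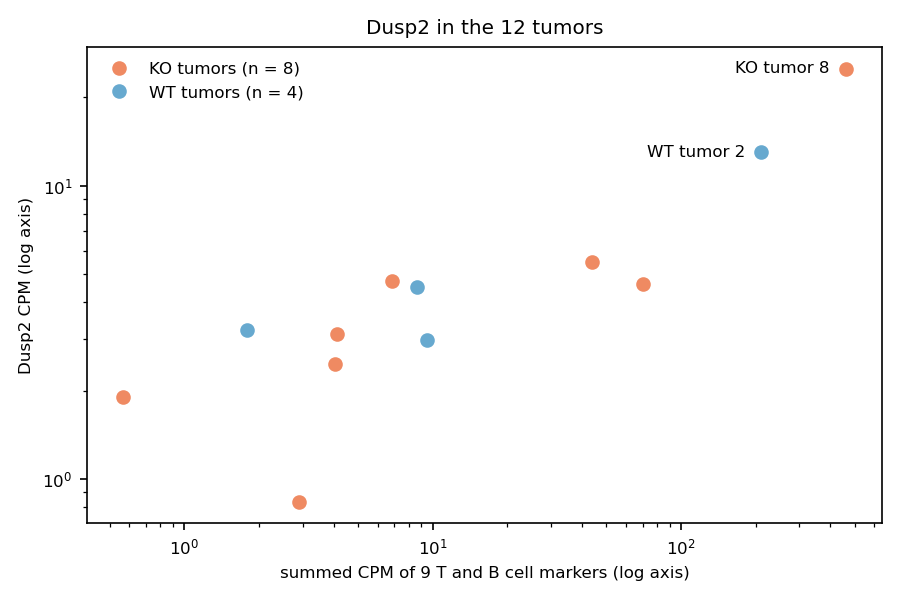
Dusp2 CPM against the summed CPM of 9 T and B cell markers in the 12 tumors (both axes log; KO n = 8, WT n = 4); each point is 1 tumor. KO tumor 8 and WT tumor 2 are highest on both axes.

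Dusp7 measured 29.7, 56.2 and 90.3 CPM as lowest, median and highest tumor and 26.9, 35.1 and 50.8 in lines. Of the 12 tumors, 7 were above all lines. The log2 difference was 0.72 ± 0.15 (adjusted p = 3.88e-04, edgeR) and positive in 5 of 5 animals. It was 1.21 ± 0.23 in WT libraries alone (adjusted p = 0.00369, with 33.7% of genes called) and 0.27 ± 0.20 in KO libraries alone (adjusted p = 0.244, with 60.0% called).

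Dusp6 measured 135, 194 and 392 CPM as lowest, median and highest tumor and 181, 334 and 437 in lines, with wide overlap. The log2 difference was -0.44 ± 0.18 (adjusted p = 0.0390, edgeR). It missed the threshold with RLE factors (-0.35, adjusted p = 0.100) and DESeq2 (-0.35, adjusted p = 0.0981), and when any of 9 single libraries was left out. KO libraries alone gave -0.83 ± 0.20 (adjusted p = 0.00284) and WT libraries alone -0.01 ± 0.31 (adjusted p = 0.976). It was -0.51 by limma-voom (adjusted p = 0.0180). With the animal as a block in limma-voom the value was -0.54 ± 0.17 (adjusted p = 0.00768, with 69.5% of genes called), and over the 5 paired animals it was -0.65 ± 0.23 (adjusted p = 0.0516, edgeR, with 50.2% called) and negative in 4 of them.

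Dusp4, at 33.9, 60.4 and 220.4 CPM in tumors and 85.1, 119 and 143 in lines, did not pass in the fit of both genotypes (-0.47 ± 0.26, adjusted p = 0.122). It passed by limma-voom (-0.64, adjusted p = 0.0236, with 66.6% of genes called), and the animal as a block did not change that call (-0.62 ± 0.23, adjusted p = 0.0196, limma-voom). It also passed in KO libraries alone (-0.91 ± 0.33, adjusted p = 0.0303, edgeR), without KO tumor 6 (-0.65, adjusted p = 0.00732) and without WT tumor 1 (-0.72, adjusted p = 0.017). WT libraries alone gave 0.01 ± 0.35. Dusp16 had 45.5, 78.6 and 100.3 CPM in tumors and 44.6, 70.4 and 151 in lines, a log2 difference of -0.02 ± 0.20. Within the 5 paired animals its tumor exceeded its line in 5 of 5, and the paired value was 0.56 ± 0.12 (adjusted p = 0.00642, edgeR).

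Dusp5, Dusp8, Dusp9 and Dusp10 had log2 differences between -0.12 and 0.14 over both genotypes (adjusted p = 0.613 to 0.742). Each was below 0 in KO libraries alone and above 0 in WT libraries alone: -0.38 and 0.69 for Dusp5, -0.28 and 0.50 for Dusp8, -0.83 and 0.63 for Dusp9, and -0.36 and 0.58 for Dusp10. Of these 8 values only that of Dusp9 in KO libraries passed (adjusted p = 0.00233, edgeR). The test of each such gap is the interaction given above, which no member passed.

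**Figure D5:**
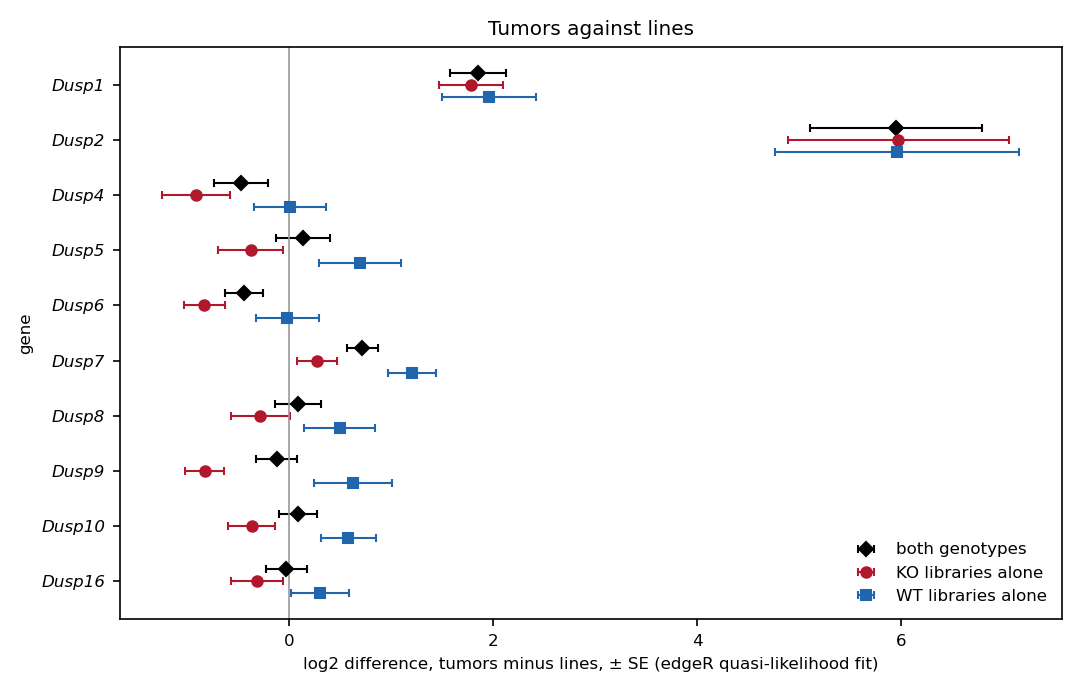
Log2 difference of tumors minus lines (± SE, edgeR) for each gene over both genotypes (diamonds), in KO libraries alone (circles, n = 8 and 5) and in WT libraries alone (squares, n = 4 and 5). Dusp1 and Dusp2 stand near 1.85 and 5.95 with KO and WT close together, while the other 8 genes have WT values to the right of their KO values.

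By the ratio of highest to lowest library, Dusp4, Dusp5, Dusp6, Dusp7, Dusp9 and Dusp10 varied more in the tumors than in the lines. This ratio pools both genotypes and tends to grow with the number of libraries, here 12 tumors and 10 lines. Spread over all genes was also larger in tumors, with a common coefficient of biological variation of 0.501 against 0.422 in lines (edgeR). The highest tumor exceeded the lowest by 7.70 times for Dusp5, 6.50 for Dusp4, 6.17 for Dusp9 and 4.42 for Dusp10, against 2.50, 1.68, 1.85 and 2.47 times in lines. WT tumor 1 was the highest tumor for 5 members (Dusp1, Dusp4, Dusp5, Dusp9 and Dusp10), and KO tumor 4 was the lowest for 5 (Dusp4, Dusp7, Dusp9, Dusp10 and Dusp16). KO tumor 4 also had the lowest summed ERK output genes among the KO tumors (788 CPM over 11 genes). WT tumor 1 had the highest sums of the WT tumors for ERK output (2121 CPM) and for the immediate early list (1078 CPM). Its acinar (16.5 CPM), islet (0.07 CPM), fibroblast (1775 CPM), endothelial (147 CPM) and macrophage markers (379 CPM) were the lowest of the WT tumors. The epithelial markers of WT tumor 1 summed to 11048 CPM, in a group range of 6034 to 13850. KO tumor 4 had the highest summed acinar markers of the KO tumors, 2199 CPM over 8 genes, against a median of 331 in that group. Its endothelial (462 CPM), neutrophil (285 CPM) and Schwann markers (7.42 CPM) were also the highest of the KO tumors. Its epithelial markers summed to 4235 CPM, in a group range of 3843 to 8031. Any link of these markers to the phosphatase levels was not tested. For Dusp1, Dusp8 and Dusp16 the order was reversed, with ratios of 4.46, 5.92 and 3.39 in lines and 2.60, 4.81 and 2.20 in tumors.

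The genes whose levels most resembled each phosphatase were taken as the 3 with the highest Pearson correlation of log2 CPM, over 12 tumors among 12091 genes and over 10 lines among 10510. Among so many genes high values are found for any pattern, so they are a description. In tumors, Dusp4 was most like Dmwd (r = 0.957) and Dusp9 most like Fmnl3 (r = 0.961). Dusp7 had Cdca4 (r = 0.931) and Ccnd1, the cyclin D1 gene (r = 0.923), and Dusp10 had Jund, an AP-1 subunit (r = 0.920). In lines, Dusp8 was most like Zfyve9 (r = 0.945), Casp9 (r = 0.935) and Elk1, which encodes an ERK substrate (r = 0.931), Dusp7 was most like Cdkn2b (r = 0.946), and Dusp16 most like Sox4 (r = 0.940). No name appeared in the list of a gene in both materials.

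The kinases and the other phosphatases of these pathways give the setting. Of 10 genes of the ERK cascade (Hras to Mapk3), 0 passed between genotypes in either material by edgeR or DESeq2. The smallest p in lines belonged to Mapk3, which encodes ERK1 (log2 fold change 0.51 ± 0.22, adjusted p = 0.714), and in tumors to Braf (0.38 ± 0.12, adjusted p = 0.187). Of the 11 genes that report ERK output, 9 of 11 were negative in tumors, with a median of -0.44, and 0 passed by edgeR (4 at an unadjusted p under 0.05). Etv4, an ETS factor, was at -0.68 ± 0.26 (adjusted p = 0.231) and Ccnd1 at -0.74 ± 0.31 (adjusted p = 0.262). In lines 6 of these 11 were positive and the median was 0.07. Of the immediate early list, 11 were tested in lines, 9 of them positive (median 0.49). In tumors 12 were tested, 9 of them negative (median -0.27). By edgeR 0 of this list passed between genotypes, and DESeq2 called 1 in tumors. Between materials, 7 of the 11 ERK output genes were called lower in tumors and 1 higher (median -0.54 against 0.15 over all genes). Over all genes 27.0% were called lower and 38.5% higher. The 7 include Etv5 (-1.32 ± 0.16), Myc (-1.30 ± 0.20) and Ccnd1 (-1.14 ± 0.19).

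Of the 13 JNK, p38 and ERK5 cascade genes, 0 passed between genotypes by edgeR, and 1 was called by DESeq2 in tumors. Mapk7, which encodes ERK5, was at -0.57 ± 0.15 in tumors (adjusted p = 0.139, edgeR). Between materials 4 were called higher in tumors and 5 lower, where 65.5% of all genes were called in either direction. Mapk13, a p38 kinase, was at 3.71 ± 0.53, while Map2k5 was at -0.73 ± 0.11 and Map2k6 at -1.20 ± 0.23. Of the 15 atypical dual-specificity genes, which lack the kinase-binding domain of the class described here, 13 were tested in tumors and 11 in lines, and 0 passed between genotypes by edgeR or DESeq2. The median was -0.13 in lines and -0.02 in tumors. Of 8 other MAP kinase phosphatase genes, 0 passed between genotypes by edgeR, and 1 was called by DESeq2 in tumors. Ppp2ca, a catalytic subunit of protein phosphatase 2A, was at -0.51 ± 0.14 in tumors (adjusted p = 0.147, edgeR). Between materials 1 of these 8 was called higher in tumors and 2 lower, where 65.5% of all genes were called in either direction. Ptpn7, a tyrosine phosphatase of blood cells, was higher in tumors than in lines by 6.55 ± 0.60 on the log2 scale (adjusted p = 1.49e-08, edgeR). Ppp2ca (-0.41 ± 0.09) and Ppm1b (-0.41 ± 0.11) were lower.

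The 10 genes lie on 10 chromosomes in mm10, so none share a locus. Dusp8 is at chromosome 7, 142079490 to 142095843 on the minus strand, Dusp9 at chromosome X, 73639419 to 73643514, and Dusp5 at chromosome 19, 53529109 to 53542431. Dusp6 is at chromosome 10, 99263231 to 99267489, and Dusp7 at chromosome 9, 106368632 to 106375724. The opposite strand of Dusp10 carries part of 1700056E22Rik, with 6.10% as many counts as Dusp10.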

How the data were processed

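The authors deposited whole-number counts for each gene, from 75-base single-end reads of a stranded mRNA library (per the labels' protocols). The submitters' processing notes name bcl2fastq 1.9.0, Trim Galore, STAR and mm10. The counter, its annotation and its strand setting are not given in the sources used here. Of 53342 genes, 105 (0.00944% of counts) have no symbol. From the counts, CPM, RPKM (GENCODE vM21 lengths) and 3′ UTR matches (RefSeq mature sequence) were computed. Dusp1 has a later gene version in vM21 than in the tables.

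Tests were edgeR 4.0.16 quasi-likelihood fits in R 4.3.3 (default filter, TMM, robust, Benjamini-Hochberg, threshold 0.05), tested on simulated data. Lines and tumors were fitted apart. The interaction and tumors against lines used all 22 libraries. SE is the absolute log2 fold change over the root of F. Alternatives used DESeq2 1.42.0, limma 3.58.1, other filters, covariates, an animal block and left-out libraries. edgeR's common coefficient of biological variation was 0.422 (lines) and 0.501 (tumors). No 2 libraries were near-identical.

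Pairing comes from animal numbers in the titles. Residuals of line and tumor correlated at 0.347, 0.151, 0.344, 0.091 and -0.015 in the 5 animals. The members and lists were chosen with earlier results of these data known. Named genes are all members, up to 3 per list by smallest p, and the 3 most alike per member (members of at least 1 CPM, others of at least 5). Schwann, islet, endothelial, macrophage and neutrophil markers were among the lists: each was at most 5.23 summed CPM in a line, and 0 of them passed between genotypes by edgeR or DESeq2. 1 gene of the lists is not reported here.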

Additional observations from a re-analysis of the deposited data

Results flagged for a closer look

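Single libraries lay far from the rest of their group, by Dixon's criterion at 95%, for 3 of the 10 genes. Chance gives about 1 in 20, and 40 groups were examined. Dusp2 stood at 25.0 CPM in KO tumor 8 against 0.835 to 5.50 in the other KO tumors, and at 13.0 CPM in WT tumor 2 against 2.98 to 4.50 in the other WT tumors. Dusp2 also stood at 0.408 CPM in WT line 1, from 11 counts, against 0 to 0.0402 in the other WT lines. Dusp4 stood at 158 CPM in KO tumor 6 against 33.9 to 68.8 in the other KO tumors. Dusp16 stood at 128 CPM in WT line 3 against 46.1 to 64.1 in the other WT lines.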

How the results depend on the processing

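Calls between genotypes depended on the tool: with all libraries of a material fitted apart, no member passed by edgeR or limma-voom, and those that DESeq2 called are given with the results. Between genotypes in lines, the genes called numbered 2, or 46 by DESeq2 (1 member), 5 with all libraries in 1 fit and 0 to 2 when 1 line was left out (0 members each). In tumors, 2 genes became 883 by DESeq2 (2 members), 40 with all libraries in 1 fit (1 member), 4 by limma-voom, 4 with the epithelial and 4 with the fibroblast covariate, 8 without the 2 tumors of highest lymphocyte markers, and 2 to 82 when 1 tumor was left out (0 to 1 members). The largest counts were 82 without KO tumor 2 and 57 without WT tumor 2. For the interaction, 0 became 67 by DESeq2 and 0 to 1 when 1 library was left out, with 0 members in each. Tumors against lines gave 12227 genes, 7982 over the 5 paired animals (animal as a block) and 5456 in WT libraries alone, and 3 to 5 members when 1 library was left out. Against limma-voom without it, the animal block changed no call of a member, and over the 5 paired animals the calls of Dusp6 and Dusp16 differed from those over all libraries, as given with the results, and no paired analysis was possible between KO and WT because each animal has 1 genotype.

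Several values turned sign. With 1 library left out, KO against WT lines ran from -0.22 to 0.40 (log2) for Dusp1, -0.13 to 0.0421 for Dusp4 and -0.0764 to 0.13 for Dusp9. KO against WT tumors ran from -0.32 to 0.18 for Dusp1 and -0.85 to 0.68 for Dusp2. The interaction ran from -0.48 to 0.16 for Dusp1 and -2.70 to 0.78 for Dusp2. Tumors against lines ran from -0.0604 to 0.28 for Dusp5, -0.33 to 0.00869 for Dusp9, -0.0391 to 0.15 for Dusp10 and -0.11 to 0.14 for Dusp16. In tumors, Dusp2 was at 0.00580 with genes of at least 1 CPM and 0.0255 with all libraries in 1 fit. The interaction of Dusp2 was -0.92 by limma-voom and -1.22 with the animal block. For tumors against lines, Dusp5 was at -0.00549 with the block by limma-voom, -0.0937 over the paired animals (block) and -0.38 in KO libraries alone. WT libraries alone gave 0.00903 for Dusp4 and 0.63 for Dusp9, and KO libraries alone -0.28 for Dusp8 and -0.36 for Dusp10. Dusp9 was at 0.000178 without the 2 tumors of highest lymphocyte markers. Dusp16 was at 0.0664 with RLE factors, 0.0258 at 1 CPM, 0.0664 by DESeq2, 0.0494 by limma-voom, 0.12 with the block by limma-voom, 0.56 with the block of paired animals and 0.31 in WT libraries alone. The causes were not tested.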
